A study of Mus musculus with 23 samples.

Results

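Dendritic cells are the leukocytes that take up material from dying cells, carry it to lymph nodes and present it to T cells. A set of 9 genes that mark these cells or serve their work was followed here by symbol in a table of 47643 genes: Xcr1, Clec9a and Batf3 for conventional type 1 dendritic cells, Cd209a for monocyte-derived and type 2 cells, Siglech for plasmacytoid dendritic cells, and Itgax, Flt3, Zbtb46 and Ccr7, which several subsets share. All 9 genes were found, each as 1 row. Their levels were read in 11 libraries of mouse tumor material, with 12 libraries of sorted and cultured melanoma cells as background, 23 in all.

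The study asked how the nuclear receptor NR2F6 in melanoma cells bears on immunity against the tumor. B16F10, a pigmented mouse melanoma line, was transfected with Cas9 protein and 1 of 2 guide RNAs against Nr2f6, sg492 or sg495, and dye-positive cells were sorted. RNA was sequenced from bulk tumors (control, genotype WT, and sg492 and sg495, both genotype NR2F6 KO, 2 libraries each), from tumor cells purified by depleting stromal cells (the same groups, 2 each), and from cultured cells (the same groups, 2 each). A further set holds 2 libraries labeled IgG_Control and 3 labeled anti-PD1, all B16F10 and genotype WT, and the labels do not name the tissue, dose or time. The guides were delivered to the melanoma cells in culture, before grafting. B16F10 cells were grafted into male C57BL/6 mice aged 6 to 8 weeks, per the methods of the study. Nothing says whether tumors were pooled or that the libraries of a group came from separate animals, so p-values measure only the spread between these libraries.

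Conventional type 1 dendritic cells depend on the transcription factor BATF3, carry the lectin CLEC9A, which binds actin exposed on dead cells, and the chemokine receptor XCR1, whose ligand XCL1 is made by natural killer and CD8 T cells. They are known for cross-presenting tumor antigen to CD8 T cells. FLT3 is the growth factor receptor that sustains dendritic cells, ITGAX (CD11c) is an integrin chain shared with many macrophages, ZBTB46 is a transcription factor of the conventional lineages, and CCR7 guides mature dendritic cells and some T cells to lymph nodes. CD209A is a C-type lectin, and SIGLECH is a surface lectin of plasmacytoid cells, the main source of type I interferon.

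The 9 genes are protein coding and lie apart from each other in the mouse genome (GRCm38, GENCODE M21). Xcr1 is at chr9:123852315-123862029, Clec9a at chr6:129408862-129424763, Batf3 at chr1:191097847-191108945, Zbtb46 at chr2:181387762-181459426, Itgax at chr7:128129547-128150657, Flt3 at chr5:147330741-147400489, Ccr7 at chr11:99144196-99155077, Cd209a at chr8:3743397-3748984 and Siglech at chr7:55768178-55778925. For Clec9a, 184 of 3293 exonic bases are shared with other gene models on the same strand (Clec1b and Gm43914 overlap it), so its reads could be divided among them. The other 8 genes share no exonic base with another gene.

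RefSeq start windows (GRCm38.p6) were at hand for 8 of the 9 genes, Ccr7 being the exception. The 250 bases before the start are printed for the chemokine receptor gene Xcr1 and the lectin gene Cd209a, which mark different subsets, and for Zbtb46, since its RNA was as abundant in melanoma cells without leukocytes as in tumors. Each is written 5′ to 3′ on the strand of the gene, all 3 on the minus strand, and capitals mark a match to one of the motifs searched. The Xcr1 window is chr9:123862030-123862279, the Cd209a window is chr8:3748985-3749234, and neither lies in an annotated gene. The Zbtb46 window, chr2:181424389-181424638, lies in an intron of the longer GENCODE model of that gene.
Xcr1: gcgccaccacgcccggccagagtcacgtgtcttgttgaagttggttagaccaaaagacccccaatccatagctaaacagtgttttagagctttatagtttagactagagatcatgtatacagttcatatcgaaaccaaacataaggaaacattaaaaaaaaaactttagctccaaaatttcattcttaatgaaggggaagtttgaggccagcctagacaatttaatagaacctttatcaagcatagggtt
Cd209a: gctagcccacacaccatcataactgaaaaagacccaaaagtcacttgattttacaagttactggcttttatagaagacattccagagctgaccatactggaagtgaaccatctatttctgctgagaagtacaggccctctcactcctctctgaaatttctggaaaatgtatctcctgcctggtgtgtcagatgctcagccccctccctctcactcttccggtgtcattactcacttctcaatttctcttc
Zbtb46: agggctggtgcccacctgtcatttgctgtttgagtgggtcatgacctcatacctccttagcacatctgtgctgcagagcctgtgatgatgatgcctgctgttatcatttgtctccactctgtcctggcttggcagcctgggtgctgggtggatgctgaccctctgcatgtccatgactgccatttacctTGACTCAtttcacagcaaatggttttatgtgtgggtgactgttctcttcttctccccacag
The motifs searched, on both strands in the 8 windows, were TGANTCA, the letters of AP-1 and BATF dimers, an interferon regulatory factor repeat (GAAA, any 2 bases, GAAA), a composite of an ETS factor and an interferon regulatory factor (GGAA, any 2 bases, GAAA), which can overlap the repeat, and GAGGAAGT, a PU.1 form. TGANTCA matched in the windows of Zbtb46 (TGACTCA, starting 61 bases before the start) and Itgax (TGAGTCA, 56 bases before), and in 6.75% of 32817 windows of the same length in the genome. No other motif matched in any of the 8 windows. The shares of all windows were 2.97% for the repeat, 2.3% for the composite and 2.44% for GAGGAAGT. A match is a run of letters only, and its absence says no more than that these letters are not in this window.

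Levels are TPM, which are scaled for transcript length and to the same total in each library, so that different genes can be set side by side. The labels give 23000000 to 31000000 reads per library, and the reads behind a single TPM value are unknown. The targeted gene, Nr2f6, stood at 25.83 and 25.24 TPM in bulk tumors of the control group, at 22.31 and 23.31 TPM with sg492 and at 17.22 and 15.76 TPM with sg495. In the sorted cells it was 20.32 and 17.73 in control, 10.6 and 12.18 with sg495, but 19.84 and 25.7 in the libraries labeled sg492, which therefore were not lower than control. The IgG pair had the lowest correlation of any replicate pair across genes (Pearson r = 0.877, against 0.977 to 0.978 in the bulk tumors).

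Of the 9 genes, 7 were nearly absent from melanoma cells without stroma. Clec9a, Itgax and Flt3 were listed at 0 TPM in all 12 sorted and cultured libraries, Xcr1 in 11 of them (0.04 TPM in the other) and Cd209a in 11 (0.1 TPM in the other). Ccr7 ranged from 0.04 to 0.33 TPM in the sorted cells, with a median of 0.125, and was listed at 0 in 5 of 6 cultured libraries. Siglech ranged from 0 to 0.4 TPM in the sorted cells, with a median of 0.13, and from 0 to 0.21 TPM in the cultured cells, with a median of 0.045.

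Batf3 and Zbtb46 were different, since both were present in every melanoma library. Batf3 ranged from 3.8 to 6.54 TPM in the 6 cultured libraries, with a median of 4.87, and from 0.62 to 2.01 TPM in the 6 sorted libraries, with a median of 1.045. The cultured and sorted ranges of Batf3 did not overlap, and the bulk tumors lay between and across them at 1.97 to 5.38 TPM. Zbtb46 ranged from 3.54 to 4.37 TPM in cultured, from 3.32 to 4.46 TPM in sorted and from 3.4 to 4.82 TPM in bulk libraries. The 3 ranges of Zbtb46 overlapped almost fully.

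**Figure D1:**
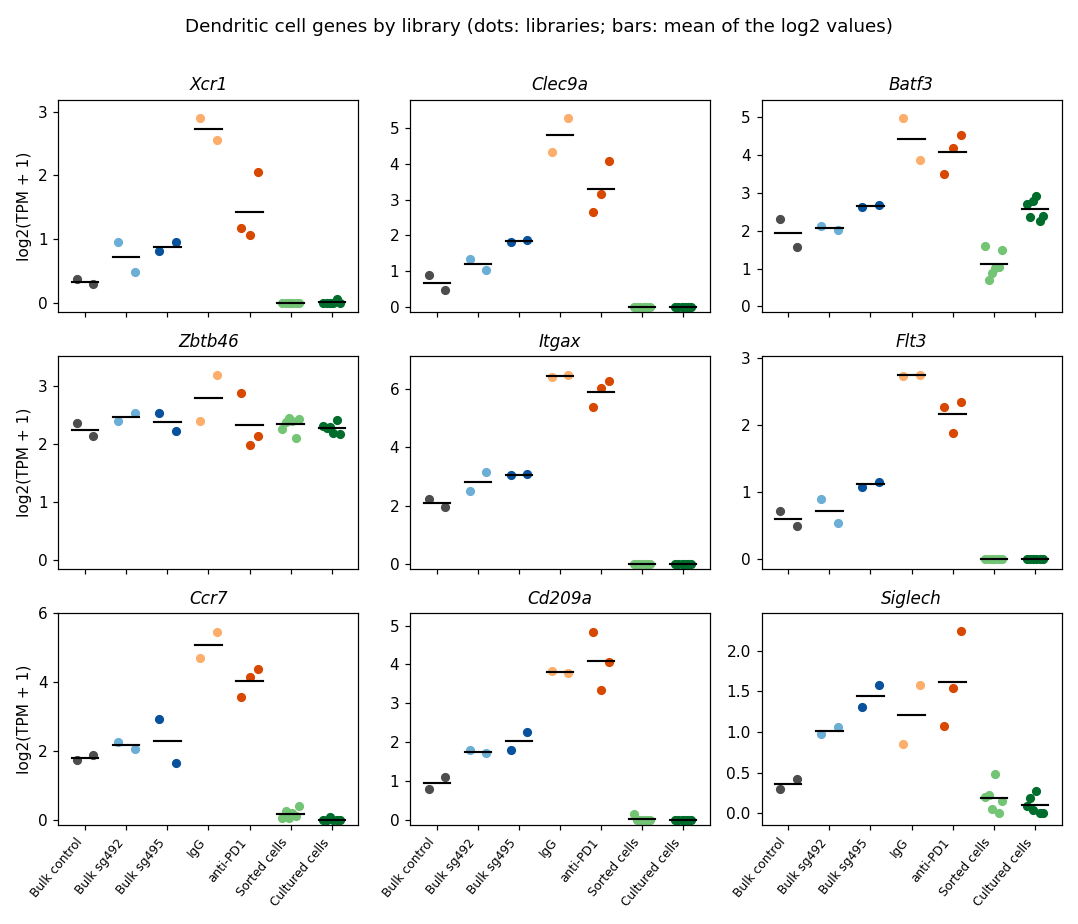
Level of each of the 9 dendritic cell genes, as log2(TPM + 1), in the control, sg492 and sg495 bulk tumors, the IgG and anti-PD1 libraries, and all sorted and cultured melanoma cell libraries. Dots are libraries and bars the mean of the log2 values. Itgax, Flt3 and Clec9a sit at 0 in the sorted and cultured cells, whereas Zbtb46 is near 4 TPM in melanoma cells and bulk tumors alike.

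Bulk tumors were next set against sorted tumor cells. Per the methods of the study, the sorted cells were also dissociated with collagenase, so the removal of stromal cells and effects of handling cannot be told apart. The test was limma on log2(TPM + 1) of the 13493 genes that averaged 1 TPM or more in these libraries, two-sided, with Benjamini-Hochberg adjustment over all of them and a call at an adjusted p under 0.05 and a fold change of at least 1.5. Itgax, Cd209a, Ccr7 and Batf3 were called higher in bulk tumors, as were 10.0% of all genes tested. Itgax, Cd209a and Ccr7 averaged under 1 TPM in the sorted cells and so passed the filter only through the bulk tumors. Nothing is read from the count of members called or from the p-values of these 3 genes. Itgax was 2.85 to 7.81 TPM in the 6 bulk tumors, with a median of 5.99, and listed at 0 in the sorted cells (adjusted p = 3.831e-07, limma). Ccr7 was 2.15 to 6.73 TPM in bulk, with a median of 2.975, and higher by 1.91 ± 0.21 (SE) on the log2 scale (adjusted p = 7.947e-05, limma). Cd209a was 0.74 to 3.78 TPM in bulk and differed by 1.55 ± 0.14 (adjusted p = 1.916e-05, limma). Batf3 differed by 1.10 ± 0.19 (adjusted p = 0.00133, limma), although the lowest bulk library, at 1.97 TPM, was under the highest sorted one, at 2.01 TPM.

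Zbtb46 differed by 0.03 ± 0.10 on the log2 scale (adjusted p = 0.845, limma), with means of 4.192 TPM in bulk and 4.083 TPM in sorted cells. Xcr1, Clec9a, Flt3 and Siglech were under the filter in these 12 libraries. With a filter of 0.1 TPM, 8 of 9 members were called higher in bulk tumors, Zbtb46 being the exception, as were 9.96% of 19469 genes. All 6 bulk libraries were above all 6 sorted ones for 6 of the 9 genes and for 14.5% of those 19469 genes. Xcr1, Clec9a, Itgax and Flt3 were listed at 0 in all 6 sorted libraries, and Cd209a averaged 0.017 TPM there. These genes passed even the filter of 0.1 TPM only through the bulk tumors, so nothing is read from either count. Without the 2 sorted libraries labeled sg492 the same 4 members were called with the filter of 1 TPM. With 1 of the sg492 or sg495 bulk libraries left out, Cd209a fell under that filter and 3 members were called.

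The sg495 bulk tumors were then compared with the control bulk tumors. Of the 9 dendritic cell genes, 7 were higher in both sg495 libraries than in both control libraries, Zbtb46 and Ccr7 being the exceptions, and the largest ratios of mean TPM were those of Siglech, Clec9a, Xcr1 and Cd209a. No member was called after adjustment, however, in a fit that called 4 of 13639 genes, 0.0293%. In bulk RNA, more cells of a type and more RNA per cell cannot be told apart. By flow cytometry, the study reported no significant rise of dendritic cells carrying XCR1 in tumors of the edited cells, while infiltrating leukocytes increased. Per its methods, the abundance of a cell type was a percentage of leukocytes. How those cell measurements relate to the RNA levels given here was not tested.

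Among the genes of type 1 cells, Clec9a was 0.85 and 0.37 TPM in control and 2.53 and 2.67 TPM in sg495 tumors, a ratio of means of 4.26. On the log2(TPM + 1) scale the difference was 1.18 ± 0.26 (SE, 2 libraries against 2, adjusted p = 0.112, limma). Xcr1 was 0.29 and 0.22 TPM in control and 0.75 and 0.94 TPM in sg495 tumors, a ratio of 3.31. It was under the filter of 1 TPM, and with a filter of 0.1 TPM the difference was 0.55 ± 0.21 on the log2 scale (adjusted p = 0.352, limma). Batf3 was 3.97 and 1.97 TPM in control and 5.17 and 5.38 TPM in sg495 tumors, and its difference was 0.71 ± 0.26 (adjusted p = 0.267, limma). For all 3 genes the groups did not overlap, and the control libraries of Batf3 were farther apart than its sg495 libraries.

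Of the other subsets, Cd209a was 0.74 and 1.15 TPM in control and 2.44 and 3.78 TPM in sg495 tumors, a difference of 1.07 ± 0.24 on the log2 scale (adjusted p = 0.121, limma). Siglech, the plasmacytoid lectin, was 0.23 and 0.34 TPM in control and 1.48 and 1.98 TPM in sg495 tumors. Its ratio of means, 6.07, was the highest of the 9 genes, and its difference on the log2 scale was 1.08 ± 0.24 (adjusted p = 0.119, limma). Both genes were low in the control tumors, so that the pseudocount of 1 TPM holds their fitted differences well under the log2 of the ratio. The control values of Siglech lay within its range in the sorted melanoma cells, 0 to 0.4 TPM, so its ratio is taken against a level near the floor.

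The shared genes divided. Itgax was 3.73 and 2.85 TPM in control and 7.34 and 7.42 TPM in sg495 tumors, a difference of 0.97 ± 0.24 on the log2 scale (adjusted p = 0.133, limma). Flt3 was 0.63 and 0.4 TPM in control and 1.1 and 1.22 TPM in sg495 tumors, and with the filter of 0.1 TPM its difference was 0.52 ± 0.20 (adjusted p = 0.361, limma). Ccr7 was 2.33 and 2.72 TPM in control but 6.73 and 2.15 TPM in sg495 tumors, so that 1 sg495 library was above and the other below both controls (0.49 ± 0.41, adjusted p = 0.627, limma). Zbtb46 was 4.16 and 3.4 TPM in control and 4.82 and 3.69 TPM in sg495 tumors, with overlapping groups (0.13 ± 0.18, adjusted p = 0.778, limma).

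Counted over the list, 7 of the 9 members were above both controls in both sg495 libraries, against 29.0% of 19402 genes that averaged 0.1 TPM or more, a filter that every member also passed in the control tumors alone. With that filter the median difference of the 9 was 0.71 on the log2 scale, against 0.06 over those genes. With the filter of 1 TPM the median of the 7 tested was 0.97, but Clec9a, Cd209a and Siglech averaged under 1 TPM in control and passed it only through the edited groups. At an unadjusted p under 0.05 were 5 of those 7 members and 2135 of the 13639 genes. Clec9a, Cd209a and Siglech were among the 5, so nothing is read from that count of members. These values describe the list and carry no test.

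By group mean, the sg492 bulk tumors lay between control and sg495 for every member but Zbtb46. Single libraries of sg492 and sg495 overlapped for Xcr1, Itgax, Cd209a, Ccr7 and Zbtb46. Clec9a was 1.54 and 1.04 TPM with sg492 and Xcr1 was 0.93 and 0.39 TPM. Cd209a was 2.44 and 2.31 TPM and Siglech 0.96 and 1.08 TPM. Itgax was 4.64 and 7.81 TPM. Clec9a, Xcr1, Cd209a, Siglech and Itgax were each above both controls in both sg492 libraries.

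On the log2 scale the sg492 differences from control were 0.52 ± 0.26 for Clec9a (adjusted p = 0.640), 0.80 ± 0.24 for Cd209a (adjusted p = 0.506), 0.65 ± 0.24 for Siglech (adjusted p = 0.563) and 0.72 ± 0.24 for Itgax (adjusted p = 0.519), all by limma. Batf3, at 3.37 and 3.06 TPM, lay between the control libraries, and Flt3, at 0.86 and 0.45 TPM, overlapped them. Zbtb46, at 4.3 and 4.78 TPM, and Ccr7, at 3.8 and 3.23 TPM, were above both controls with differences of 0.22 ± 0.18 and 0.36 ± 0.41. No member was called, and limma called 0% of the 13639 genes, with 1132 at an unadjusted p under 0.05. In all, 7 of the 9 members were above both controls, against 27.9% of the 19402 genes that averaged 0.1 TPM or more, and with that filter their median difference was 0.38 against 0.06 over those genes. The sg492 and sg495 comparisons share their control libraries, so their directions are not independent.

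Directly compared, the sg495 tumors exceeded the sg492 tumors in every library for Clec9a, Batf3, Flt3 and Siglech, 4 of the 9 genes, against 19.9% of the 19402 genes that averaged 0.1 TPM or more. Clec9a differed by 0.66 ± 0.26 on the log2 scale (adjusted p = 0.461, limma). The difference was 0.57 ± 0.26 for Batf3 (adjusted p = 0.536, limma) and 0.43 ± 0.24 for Siglech (adjusted p = 0.632, limma). Again 0% of the genes tested were called, although 1384 had an unadjusted p under 0.05. No member passed the adjusted test between the guides.

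**Figure D2:**
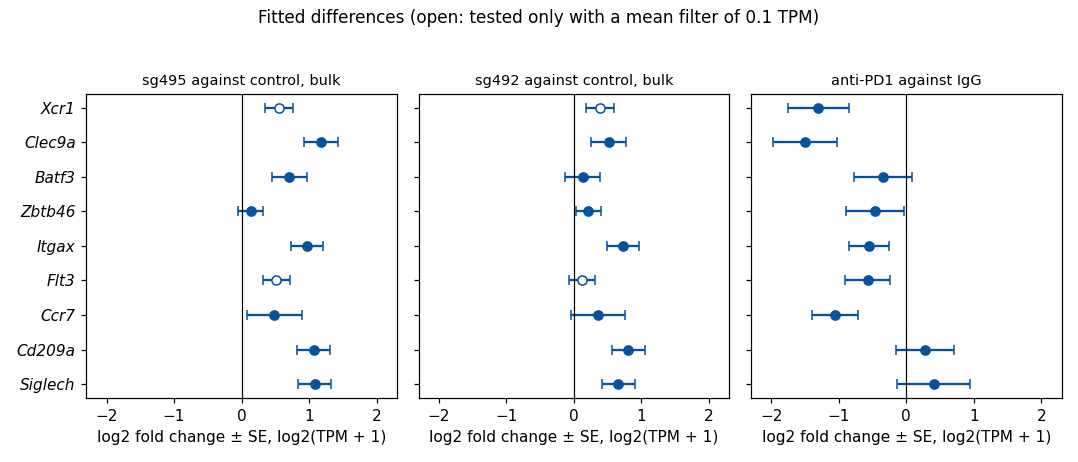
Fitted difference of each gene on the log2(TPM + 1) scale, with its standard error, for sg495 and sg492 against control in bulk tumors and for anti-PD1 against IgG. Open points were under the filter of 1 TPM and come from the fit with a filter of 0.1 TPM. In the bulk tumors the points lie right of 0, and in the anti-PD1 comparison 7 of 9 lie left of it, with Cd209a and Siglech on the right.

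The order of the genes by level differed between the tumor groups. In control tumors Zbtb46, Itgax, Batf3 and Ccr7 led, at mean levels of 3.78, 3.29, 2.97 and 2.525 TPM, and neighbors in this order overlapped. In sg495 tumors Itgax led at 7.38 TPM and stood clear of Batf3 at 5.275 TPM. Xcr1 was the lowest gene in both, at 0.255 and 0.845 TPM, and overlapped its neighbor Siglech in control but not its neighbor Flt3 in sg495 tumors.

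Other leukocyte genes were higher in the same libraries. Ptprc, which encodes CD45, the antigen of all leukocytes, was 9.29 and 5.74 TPM in control, 13.79 and 15.98 TPM in sg492 and 18.16 and 26.21 TPM in sg495 tumors. Its sg495 difference was 1.46 ± 0.25 on the log2 scale (adjusted p = 0.0973, limma). The summed level of 9 macrophage and monocyte genes was 249.1 to 381.6 TPM in control and 564.6 to 612.6 TPM in sg495 tumors. All 9 were above both controls, as were 29.0% of the 19402 genes that averaged 0.1 TPM or more. Of 5 T cell genes 2 were so, with sums of 5.12 to 12.3 TPM in control and 12.55 to 19.29 TPM in sg495 tumors. The 3 natural killer cell genes summed to 0.9 to 1.05 TPM in control and 3.68 to 4.51 TPM in sg495 tumors, and the 4 B cell genes to 2.38 to 3.6 and 2.01 to 2.95 TPM. The 4 neutrophil genes summed to 4.04 to 14.21 TPM in control and 6.02 to 7.46 TPM in sg495 tumors, and Ly6g among them was listed at 0 in every library. Cd207, the defining gene of Langerhans cells, was also listed at 0 in every library. The part of these cell types in the result was not tested.

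Levels were also taken relative to Ptprc. Since Ptprc was higher in sg495 than in control tumors, a gene of unchanged TPM is lower on this measure. Per 100 TPM of Ptprc, Itgax was 40.15 and 49.65 TPM in control and 28.31 to 40.42 TPM in sg495 tumors, and Cd209a was 7.966 to 20.03 TPM in control and 13.44 to 14.42 TPM in sg495 tumors. Xcr1 was 3.122 to 3.833 TPM in control and 3.586 to 4.13 TPM in sg495 tumors. These ranges overlapped, as did those of Ccr7. Clec9a was 6.446 to 9.15 in control and 10.19 to 13.93 in sg495 tumors, and Siglech was 2.476 to 5.923 and 7.554 to 8.15, so for these 2 genes the sg495 range stayed above the control range. Batf3 and Zbtb46, which melanoma cells also expressed, were lower per Ptprc in sg495 tumors, at 20.53 to 28.47 against 34.32 to 42.73 for Batf3 and 14.08 to 26.54 against 44.78 to 59.23 for Zbtb46. Flt3 was also lower, at 4.655 to 6.057 against 6.781 to 6.969. When TPM were scaled to equal Ptprc in every library, an alternative chosen after seeing the data, the median sg495 difference of the 7 members became -0.33 on the log2 scale, against -1.41 over all genes tested. The ratios share a denominator and are given without a test.

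**Figure D3:**
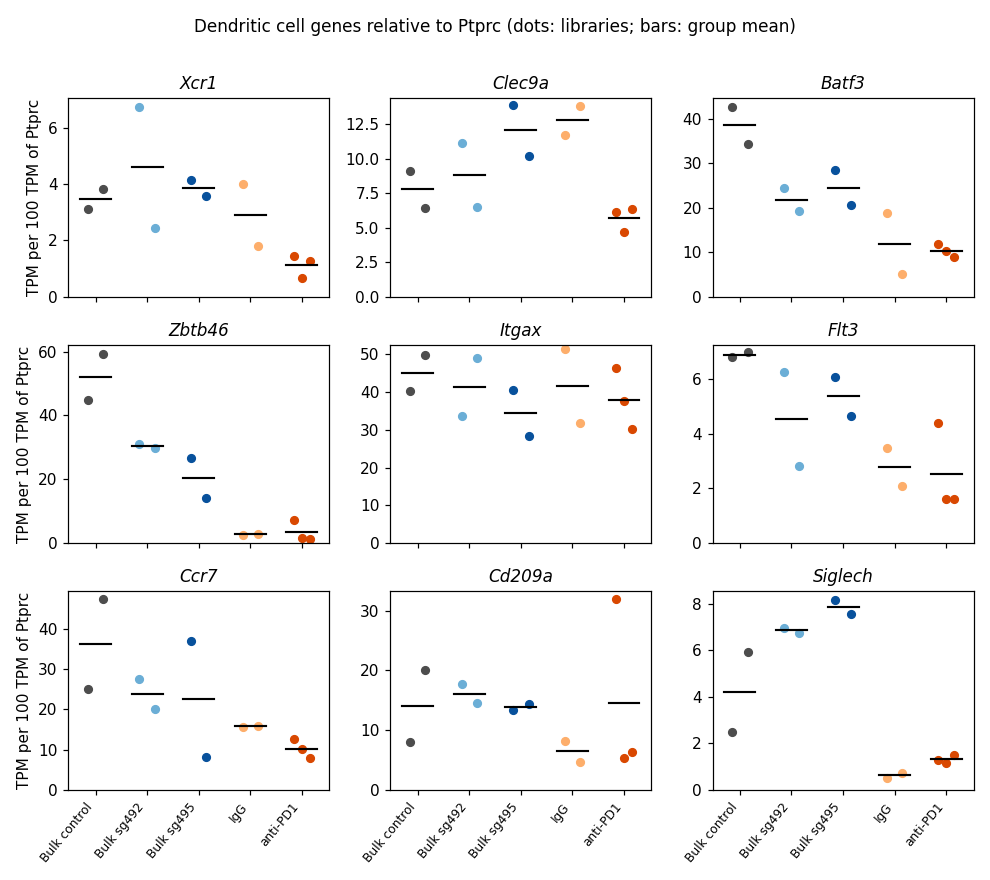
TPM of each gene per 100 TPM of Ptprc, the pan-leukocyte gene, in the 6 bulk tumors and the 5 IgG and anti-PD1 libraries. Dots are libraries and bars group means. Clec9a and Siglech are higher per Ptprc in sg495 than in control tumors, Batf3, Zbtb46 and Flt3 are lower, and Clec9a, Xcr1 and Ccr7 are lower in anti-PD1 than in IgG libraries. Ptprc is itself higher in sg495 than in control tumors, which lowers the ratio of a gene of unchanged TPM.

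Genes chosen as companions of each subset were mostly higher in the sg495 tumors as well. For scale, 29.0% of the 19402 genes that averaged 0.1 TPM or more were above both controls. That share was not computed for the filter of 1 TPM that these lists had to pass, so nothing is read from their counts. Of 8 further genes of type 1 cells 5 were tested, and all 5 were above both controls. Irf8, a transcription factor these cells need, was 11.44 and 4.85 TPM in control and 14.26 and 20.75 TPM in sg495 tumors (1.10 ± 0.36 on the log2 scale, adjusted p = 0.216, limma). Naaa had the largest difference of them, 1.295 ± 0.22 (adjusted p = 0.0963, limma), and Wdfy4, which cross-presentation requires, differed by 0.80 ± 0.27 (adjusted p = 0.223, limma). Cadm1 and Tlr3 differed by 0.40 and 0.30 and were also found in cultured melanoma cells, at 67.17 to 80.49 and 4.16 to 8.02 TPM. Of 6 companions of type 2 cells 5 were tested and all 5 were above both controls, among them Clec10a (0.94 ± 0.22, adjusted p = 0.121) and Mgl2 (1.00 ± 0.24, adjusted p = 0.131), both macrophage galactose lectins shared with macrophages. Sirpa, another of these 5, was 138.09 to 169.55 TPM in cultured melanoma cells, against 106.47 to 140.56 TPM in bulk tumors. None of these companion genes was called.

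Plasmacytoid companions were less uniform: of 9 genes 5 were tested, 3 were above and 1, Cox6a2, was below both controls. Bst2 and Irf7, which interferon induces in many cells, differed by 0.92 ± 0.19 and 0.81 ± 0.22 on the log2 scale (adjusted p = 0.106 and 0.154, limma). Tcf4, the lineage factor of plasmacytoid cells, differed by 0.14 ± 0.12 and was 12.55 to 19 TPM in cultured melanoma cells. Of 12 maturation genes 10 were tested and 8 were above both controls, with a median difference of 0.39. Of the 19402 genes that averaged 0.1 TPM or more, 29.0% were above both controls. The share at the filter of 1 TPM was not computed, and nothing is read from the counts of these 2 lists. The costimulatory genes Cd40 and Cd86 differed by 0.82 ± 0.27 and 0.81 ± 0.31 (adjusted p = 0.227 and 0.286, limma), whereas Fscn1, the actin bundler of mature dendritic cells, differed by 0.09 ± 0.12 and Ccl22, a chemokine for regulatory T cells, by 0.14 ± 0.22.

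Of 5 ligand and growth factor genes 2 passed the filter. Xcl1, the ligand of XCR1, was 1.13 and 0.76 TPM in control, 3.36 and 1.23 TPM in sg492 and 3.11 and 3.54 TPM in sg495 tumors (1.16 ± 0.34 for sg495, adjusted p = 0.180, limma). Flt3l, which encodes the growth factor that FLT3 binds, was 1.27 and 2.05 TPM in control and 4.11 and 2.64 TPM in sg495 tumors (0.71 ± 0.26, adjusted p = 0.257, limma). Flt3l was also found in melanoma cells, at 0.45 to 1.06 TPM in the cultured and 0.6 to 3.21 TPM in the sorted libraries. Both ligand genes were above both controls in both sg495 libraries, as were 29.0% of the 19402 genes that averaged 0.1 TPM or more. That share was not computed for the filter of 1 TPM. Xcl1 averaged under 1 TPM in control and passed that filter only through the edited groups, so nothing is read from this count. The CCR7 ligand genes Ccl19 and Ccl21a stayed at or under 1.81 TPM in the bulk tumors.

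Zbtb46 and Siglech overlapped between the 5 IgG and anti-PD1 libraries and the 6 bulk tumors. The other members were higher in the IgG and anti-PD1 libraries, with Itgax at 40.07 to 86.75 TPM against 2.85 to 7.81 TPM in bulk. The share of all genes that separated in this way was not computed, so nothing is read from that separation. The 9 genes together summed to 188.3 to 214.8 TPM in IgG and 106.7 to 163.8 TPM in anti-PD1 libraries, against 13.42 to 32.36 TPM in the bulk tumors. Itgax, which macrophages share, was the largest part of the sum with IgG, and cultured melanoma cells alone summed to 7.77 to 10.33 TPM, nearly all of it Batf3 and Zbtb46. Ptprc was 162 and 272.52 TPM in IgG and 86.68, 167.95 and 251.46 TPM in anti-PD1 libraries. The 5 melanocyte genes summed to 1603 to 4800 TPM there and to 14420 to 15460 TPM in the bulk tumors. The sets are labeled differently and were not tested against each other.

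Within this set Clec9a and Xcr1, but not Batf3, were lower in every anti-PD1 library than in both IgG libraries, and neither passed the adjusted test. Clec9a was 19.05 and 37.61 TPM with IgG and 5.31, 7.88 and 16.03 TPM with anti-PD1, a difference of -1.50 ± 0.48 on the log2 scale (SE, 3 libraries against 2, adjusted p = 0.608, limma). Xcr1 was 6.48 and 4.91 TPM with IgG and 1.25, 1.09 and 3.15 TPM with anti-PD1 (-1.30 ± 0.45, adjusted p = 0.608, limma). The lowest IgG value of Clec9a was close to the highest anti-PD1 value, and for Xcr1 the gap was wider. Gm43914, whose model overlaps Clec9a, was 1.18 and 14.48 TPM with IgG and 0.84 to 1.37 TPM with anti-PD1.

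Ccr7 was 25.4 and 43.23 TPM with IgG and 10.85, 17.01 and 19.83 TPM with anti-PD1, again without overlap (-1.06 ± 0.34, adjusted p = 0.608, limma). Itgax was 83.11 and 86.75 TPM with IgG and 40.07, 63.2 and 75.63 TPM with anti-PD1 (-0.55 ± 0.29, adjusted p = 0.608, limma). Flt3 was 5.61 and 5.7 TPM with IgG and 3.8, 2.68 and 4.06 TPM with anti-PD1 (-0.57 ± 0.33, adjusted p = 0.608, limma). The IgG libraries were close to each other for Itgax and Flt3, and all anti-PD1 libraries lay under them.

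The remaining 4 genes overlapped between the groups. Batf3 was 30.42 and 13.6 TPM with IgG and 10.29, 17.14 and 22.22 TPM with anti-PD1. Zbtb46 was 4.29 and 8.18 TPM with IgG and 6.39, 2.97 and 3.4 TPM with anti-PD1. Their differences were -0.35 ± 0.43 and -0.46 ± 0.42 on the log2 scale (adjusted p = 0.769 and 0.694, limma). Cd209a was 13.16 and 12.82 TPM with IgG and 27.64, 9.04 and 15.78 TPM with anti-PD1 (0.27 ± 0.43), so that 1 anti-PD1 library was below and the others were above both IgG libraries. Siglech was 0.81 and 1.98 TPM with IgG and 1.11, 1.92 and 3.73 TPM with anti-PD1 (0.41 ± 0.55).

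No member passed the adjusted test in the anti-PD1 comparison, in which limma called 0% of 13418 genes and 964 had an unadjusted p under 0.05. In all, 5 of the 9 members were lower without overlap, against 15.8% of all genes tested, and the median difference of the 9 was -0.55 on the log2 scale against -0.04 over all genes. An exact permutation test of 3 against 2 libraries could not go below p = 0.2, nor one of 2 against 2 below 0.333. When the spread was estimated over all 23 libraries in 1 model, Clec9a, Xcr1 and Ccr7 were called lower (adjusted p = 0.0118, 0.0082 and 0.0383, limma), as were 5.22% of all genes tested. That model shares its spread with the bulk, sorted and cultured libraries, whose replicate pairs had r of 0.965 to 0.987.

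Relative to Ptprc, Clec9a was 11.76 and 13.8 TPM per 100 TPM with IgG and 4.692 to 6.375 with anti-PD1. Xcr1 was 1.802 and 4 with IgG and 0.649 to 1.442 with anti-PD1, and Ccr7 was 15.68 and 15.86 with IgG and 7.886 to 12.52 with anti-PD1. These 3 genes were thus lower in each anti-PD1 library per Ptprc as well. Itgax per 100 TPM of Ptprc, at 31.83 to 51.3 with IgG and 30.08 to 46.23 with anti-PD1, overlapped between the groups, as did Flt3, at 2.092 to 3.463 and 1.596 to 4.384. Siglech was 0.5 and 0.7266 with IgG and 1.143 to 1.483 with anti-PD1, the reverse of Clec9a in direction. The ratio of Clec9a to Cd209a, chosen after the values were seen, was 1.448 and 2.934 with IgG and 0.1921, 0.8717 and 1.016 with anti-PD1.

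Of the 8 companion genes of type 1 cells, 4 were lower in every anti-PD1 library, against 15.8% of all genes tested, and none was called. All 8 had a negative difference, with a median of -0.58 on the log2 scale. Itgae, the integrin CD103, was 6.27 and 8.15 TPM with IgG and 1.84, 1.41 and 3.22 TPM with anti-PD1 (-1.41 ± 0.39, adjusted p = 0.608, limma). Snx22 and Gcsam differed by -1.16 ± 0.55 and -1.24 ± 0.50, and Irf8, at 64.17 to 181.28 TPM with anti-PD1 against 162.68 and 207.65 TPM with IgG, by -0.68 ± 0.42. The type 2 companions differed less, with a median of -0.27 over 7 rows (Itgam has 2 gene identifiers), and Mgl2 was higher by 0.48 ± 0.36.

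Maturation genes followed Ccr7 in direction. All 11 tested had a negative difference in the anti-PD1 libraries, with a median of -0.71. Of these, 6 were lower without overlap, against 15.8% of all genes tested. Fscn1 was 29.45 and 31.39 TPM with IgG and 13.69, 18.29 and 19.99 TPM with anti-PD1 (-0.79 ± 0.25, adjusted p = 0.608, limma). Ccl22 was 23.86 and 30.22 TPM with IgG and 11.19, 14.29 and 18.39 TPM with anti-PD1 (-0.86 ± 0.28, adjusted p = 0.608, limma). Il12b, a subunit of the cytokine IL-12, was 4.64 and 4.33 TPM with IgG and 0.98, 2.58 and 2.76 TPM with anti-PD1 (-0.88 ± 0.44). None of them was called, and Lamp3 was at or under 0.05 TPM in all 5 libraries.

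Plasmacytoid companions split, with 5 of 9 higher and a median of 0.11. Ly6d was listed at 0 in both IgG libraries and was 0.49, 2.65 and 6.37 TPM with anti-PD1, whereas Irf7 differed by -1.59 ± 0.74 and Bst2 by -0.92 ± 0.30. Xcl1 was 3.08 and 7.19 TPM with IgG and 1.47, 6.73 and 30.99 TPM with anti-PD1, and Flt3l was 6.29 and 11.81 against 4.28, 6.65 and 8.2 TPM. Both ligands overlapped between the groups.

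Several other measures moved in this set too. The 9 macrophage and monocyte genes summed to 4886 to 5491 TPM with IgG and 3565 to 4638 TPM with anti-PD1. Of them 4 were lower without overlap, against 15.8% of all genes tested. The 5 T cell genes summed to 93.28 to 131.6 TPM with IgG and 10.22 to 171.7 TPM with anti-PD1, the 3 natural killer cell genes to 1.7 to 9.5 and 0.93 to 10.94 TPM, the 4 B cell genes to 9.4 to 11.98 and 5.69 to 11.68 TPM, and the 4 neutrophil genes to 79.53 to 150.9 and 71.75 to 174.8 TPM. The melanocyte sum was 1603 to 3737 TPM with IgG and 3136 to 4800 TPM with anti-PD1. Mitochondrial transcripts took 10.2% and 11.4% of TPM with IgG and 21.9%, 8.63% and 16.6% with anti-PD1. The part of these measures in the lower values of Clec9a, Xcr1 and Ccr7 was not tested.

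**Figure D4:**
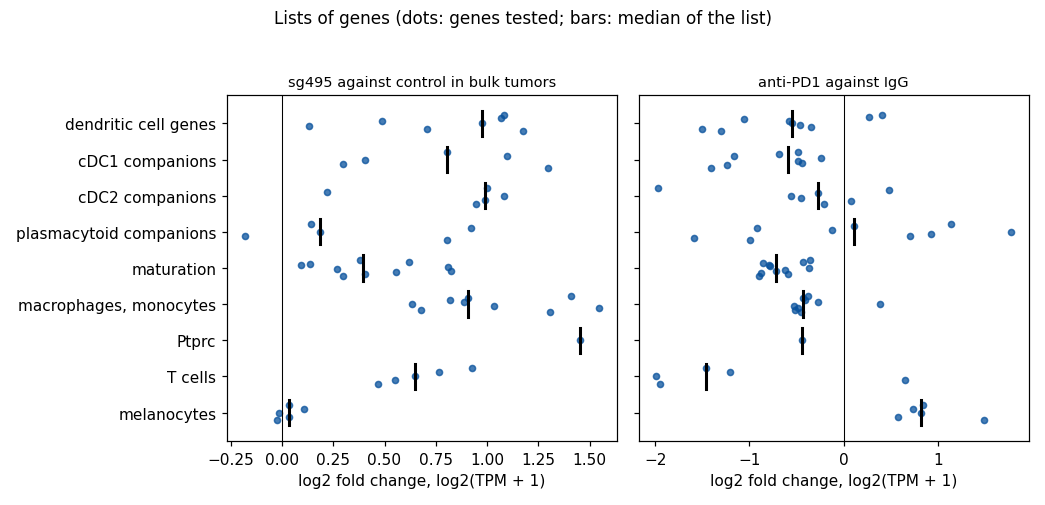
Differences on the log2(TPM + 1) scale of every gene tested in each list, for sg495 against control bulk tumors and for anti-PD1 against IgG. Dots are genes and bars the median of the list. In the bulk tumors the dendritic cell genes, the type 1 and type 2 companions, the macrophage genes and Ptprc lie right of 0 and the melanocyte genes near it. In the anti-PD1 comparison the type 1 companions (cDC1) and maturation genes all lie left of 0 and the melanocyte genes right of it.

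The genes most like each member over the 11 libraries of bulk tumors, IgG and anti-PD1 were found by Pearson r of log2(TPM + 1) among 13893 genes. These r are descriptions over libraries that share the gap in leukocyte RNA between the 2 sets, so r in the 6 bulk tumors is given beside each. For Clec9a they were Tlr9 (0.991, and 0.977 in bulk), Axl (0.990 and 0.974) and Cyp27a1 (0.989 and 0.944). Among those of Xcr1 was Itgae (0.972 and 0.821). Batf3 was most like C920025E04Rik (0.977 and 0.856), Ly9 and Fbxo6, and Flt3 most like Trim14 (0.988 and 0.881), Slc25a45 and Ttc7. Itgax was closest to Birc3 (0.998 and 0.982), Ucp2 and Myo1f, and Ndrg1 (0.985 and 0.980) and Fam117a (0.982 and 0.807) were among the genes closest to Ccr7. The nearest genes of Cd209a were Gab3 (0.983 and 0.944), H2-Ob and Acox3. Zbtb46 had a lower r in the bulk tumors for its nearest genes, Prkd2 (0.968 and 0.814), Gm17494 (0.924 and 0.413) and Ppp2r4 (0.913 and 0.108). Siglech had the lowest r of the 9, with Xcl1 (0.883 and 0.809), Klrb1c (0.881 and 0.789) and Oas1b (0.873 and 0.954).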

How the data were processed

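Per the labels and the methods of the study, poly(A) RNA was made into directional libraries and sequenced in single 75-base reads. According to the submitters' processing notes, reads were trimmed with Cutadapt 2.3, aligned to mm10 with STAR 2.7.0d and quantified with RSEM 1.3.1, with Ensembl annotation. The authors deposited TPM values of 47643 genes in 23 libraries, rounded to 2 decimals. The estimated counts were not used here, so the depth behind a value is known only as 23000000 to 31000000 reads per library, from the labels, and no count test was run.

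Groups were taken from the sample titles. Genes that averaged 1 TPM or more were fitted as log2(TPM + 1) with limma 3.58.1 (R 4.3.3) with an expression trend, on the 6 bulk tumors, on the 5 IgG and anti-PD1 libraries, or on the bulk and sorted libraries. Tests were two-sided, adjusted by Benjamini-Hochberg over all genes tested and called at adjusted p under 0.05 and a fold of at least 1.5. Fold changes are on the log2(value + pseudocount) scale and understate those of low genes. The scripts were tested on simulated data. The genes named are the 9 members, their companion, maturation and ligand lists, markers of other cell types and, for each member, the 3 genes of highest r, some of which are not reported here. The members and lists were chosen with earlier results of these data known. Same-numbered libraries were checked for shared deviations: r was -0.126, -0.00633 and 0.02 between the bulk groups and 0.0851 between IgG and anti-PD1, so the numbers were not taken as pairs. Other filters, pseudocounts, scalings, blocks and left-out libraries were tried. Positions came from GENCODE M21 and start windows from RefSeq (GRCm38.p6), read with Python 3.11.15 and pandas 2.3.3, and figures were drawn with matplotlib 3.10.9.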

Additional observations from a re-analysis of the deposited data

Results flagged for a closer look

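Batf3 and Zbtb46 stood out because RNA of these dendritic cell genes was present in cultured melanoma cells, which hold no leukocytes by Ptprc (listed at 0 in all 6 libraries). The mean of the 6 cultured libraries was 5.02 TPM for Batf3, above the mean of the control bulk tumors at 2.97 TPM. For Zbtb46 the cultured mean was 3.872 TPM, against 3.78 TPM in the control bulk tumors.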

How the results depend on the processing

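In the bulk tumor comparisons no member was called under any alternative, apart from Zbtb46 under scaling to Ptprc. For sg495 against control, the median difference of the members (log2 scale throughout) was 0.71 with a filter of 0.1 TPM or none, 1.15 with a pseudocount of 0.1 TPM and 0.81 after quantile normalization, where Zbtb46 turned to -0.033. For sg492 against control it was 0.72 with a filter of 5 TPM, which left Itgax alone, 0.87 with a pseudocount of 0.1 TPM, and 0.36 to 0.59 with 1 library left out.

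Scaling all TPM to equal Ptprc, chosen after seeing the data, took every gene relative to leukocyte RNA and moved the median of all genes to -1.41 for sg495, -0.90 for sg492, -0.50 between the guides and 0.38 for anti-PD1. For sg495 it called 88.1% of all genes and gave a median of -0.33, with 1 member called (Zbtb46, -1.12), Batf3 at -0.53, Itgax at -0.33 and Ccr7 at -0.68. For sg492 the median was -0.12, with Batf3 at -0.65, Zbtb46 at -0.63, Itgax at -0.12 and Ccr7 at -0.44. For sg495 against sg492 the median was -0.13, with Itgax at -0.22, Ccr7 at -0.24 and Cd209a at -0.13. For anti-PD1 it was -0.11, and Batf3 was 0.059.

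With 1 library left out, the sg495 difference ranged from -0.023 to 0.29 for Zbtb46 and from -0.16 to 1.14 for Ccr7, both negative without sg495 replicate 1, and the sg492 difference of Batf3 ranged from -0.24 to 0.50. Without control replicate 1 the sg495 comparison called 190 genes, against 4, and the sg492 comparison 66, against 0, with no member in either. Over all alternatives the genes called ranged from 0 to 12010 for sg495, from 0 to 7113 for sg492, both highest with the Ptprc scaling, from 0 to 117 between the guides, from 0 to 1642 for anti-PD1 and from 1820 to 2568 for bulk against sorted. For sg495 against sg492 the ranges were -0.24 to 0.072 for Zbtb46, -0.072 to 0.57 for Itgax and -0.52 to 0.78 for Ccr7. For anti-PD1 they were -0.90 to 0.20 for Batf3, positive without IgG replicate 1, and -0.11 to 0.65 for Cd209a, negative without anti-PD1 replicate 1.

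With the replicate block the anti-PD1 comparison called 2 members, Clec9a (-1.89, adjusted p = 0.000291, limma) and Ccr7 (-1.23, adjusted p = 0.035), and 514 genes, 3.83% of all. The third anti-PD1 library has no IgG partner in that fit and adds nothing to it, and the numbers are not known to pair the libraries. With all 23 libraries in 1 model 3 members were called (Clec9a, Xcr1 and Ccr7) and 1642 genes, 12.2% of all. The block changed no other call of a member. With the numbers of the sg492 tumors exchanged in the block, 0 members and 0 genes were called.

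For bulk tumors against sorted cells, 8 members were called with a filter of 0.1 TPM or none, where the median was 1.10. Several of them entered those fits only through the bulk tumors, and nothing is read from that count. The median was 3.90 with a pseudocount of 0.1 TPM and 0.95 after quantile normalization. Zbtb46 turned to -0.0080 with median-of-ratios scaling and to -0.27 after quantile normalization, and ranged from -0.027 to 0.083 with 1 library left out. A filter of 5 TPM left no member to test there. The cause of these shifts was not tested. With 2 or 3 libraries a group, and 2 members of the bulk tumors under 1 TPM, small differences could not be resolved.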
